A study of Mus musculus with 22 samples.

Results

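Complement is a chain of blood and tissue proteins that tag cells and debris for removal and call in immune cells. Its RNA was followed here through 9 genes: the 3 chains of C1q (C1qa, C1qb and C1qc), the proteases C2 and Cfb, the central components C3 and C4b, and the receptors C3ar1 and C5ar1. The genes were chosen by symbol, with earlier results of these data known, and are 9 of the 52526 symbols measured in the mouse mammary gland. In the classical pathway, C1q binds antibody or damaged surfaces, and C4 and C2 then form an enzyme that splits C3. In the alternative pathway factor B, the product of Cfb, takes the place of C2. The small fragments C3a and C5a act on C3ar1 and C5ar1, receptors of myeloid cells. Most circulating complement comes from the liver, whereas C1q is known to be made largely by macrophages, and fat tissue is a rich source of factor D.

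The tissue was the left mammary fat pad of 22 female C57BL/6J mice, 7 to 8 weeks old, each engrafted with luciferase-expressing EO771 cells, a mammary cancer line of the same strain. Wheel-running mice had a running wheel on a hub in the home cage for 2 weeks before engraftment, and sedentary control mice had the hub alone. Every mouse was injected intravenously with liposomes 24 hours before engraftment and again at engraftment. The liposomes held either PBS or clodronate, which kills phagocytes that engulf it. Tissue was taken 24 hours after engraftment, so that all 4 groups carried the engrafted cells and a liposome. PBS liposomes went to 6 sedentary and 6 wheel-running animals, clodronate liposomes to 5 of each.

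Levels are in CPM, read counts scaled to an equal total in every library, with every value under 1 raised to that floor. The libraries read the 3′ ends of transcripts, about 1 read per transcript whatever its length, so levels can be set side by side between genes. Depth ran from 13256467 to 20484578 reads per mouse, with 57.2% to 64.5% of reads assigned to genes, and the floor hides genes with up to 13 to 20 reads. Marker scores, the mean of log2(CPM + 1) over the markers of a cell type, ran over the 22 mice from 8.80 to 10.2 for adipocytes, 6.55 to 7.48 for fibroblasts, 5.42 to 7.14 for epithelium, 3.17 to 4.80 for macrophages, 1.36 to 5.02 for dividing cells and 1.78 to 11.3 for skeletal muscle. Neutrophil scores (1.00 to 1.60) lay near the floor, which gives a score of 1, and hepatocyte scores (1.61 to 2.93) were low but above it. Of their markers, Ly6g and Ttr were at the floor in every mouse. Above the floor in at least 5 mice were 3 of 7 neutrophil and 2 of 4 hepatocyte markers. Lymphocyte scores stood apart in 5 mice with a score over 3: replicate 2 of control mice and replicate 3 of wheel-running mice with PBS liposomes, and replicates 3, 4 and 5 of wheel-running mice with clodronate liposomes. Results are therefore also given without these lymphocyte-rich mice.

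The C1q genes lie side by side on the minus strand of mouse chromosome 4, within 18675 bases (GRCm38, chr4:136880129-136898803): C1qb at chr4:136880129-136886187, C1qc at chr4:136889804-136893065 and C1qa at chr4:136895917-136898803. Because these neighbours encode chains of the same protein, the upstream sequences of C1qb and C1qc are shown. They are the 250 bases before the RefSeq transcript start (GRCm38.p6, minus strand), 5′ to 3′, from chr4:136886201-136886450 and chr4:136892915-136893164. The RefSeq start of C1qc lies inside the gene positions given above, which are from GENCODE, so part of its window falls within that gene. Capitals mark GAGGAA on either strand (TTCCTC on the other), the core bound by PU.1, a transcription factor of macrophages, and by other ETS factors.
C1qb: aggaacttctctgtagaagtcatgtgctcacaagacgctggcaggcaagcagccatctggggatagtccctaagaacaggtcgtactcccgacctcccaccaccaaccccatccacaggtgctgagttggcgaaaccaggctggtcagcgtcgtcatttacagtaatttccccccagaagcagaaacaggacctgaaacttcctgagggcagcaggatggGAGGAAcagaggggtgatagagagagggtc
C1qc: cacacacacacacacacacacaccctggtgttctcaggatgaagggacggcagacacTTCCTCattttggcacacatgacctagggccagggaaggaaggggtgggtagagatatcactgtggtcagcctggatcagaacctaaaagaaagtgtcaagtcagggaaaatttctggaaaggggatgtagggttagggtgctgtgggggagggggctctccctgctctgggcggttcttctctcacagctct
Each held 1 match, in C1qc on the opposite strand, against 23.3% of 32851 mouse promoters with at least 1 match in a window of the same length. The upstream windows of C3, C3ar1 and C5ar1 held no match, which says only that these letters are not in those windows. The windows of C3ar1 and C5ar1 also overlap the GENCODE positions of their genes. Motifs of IRF, C/EBP and STAT factors were sought too. IRF matched in C1qc, C3 and C3ar1 (21.3% of all promoters), C/EBP in C3 alone (9.56%) and STAT in none of these windows (7.02%). A match describes the sequence and is no evidence of binding.

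C3, the component on which all pathways meet, was the most abundant of the 9 genes at 339 ± 105 CPM (SD, n = 22 mice). C4b followed at 83.9 ± 20.2 CPM, then C1qa at 67.6 ± 17.1, C1qb at 58.1 ± 17.8, C1qc at 41.3 ± 16.0, C2 at 29.2 ± 11.5, C3ar1 at 14.4 ± 14.6 and C5ar1 at 3.20 ± 1.87 CPM. Neighbours in this order were compared within mice, pooled over the 22. The two-sided permutation test flipped the sign of the log2 difference, with Benjamini-Hochberg adjustment over the 7 steps. Each step had an adjusted permutation p of at most 0.00718. The order was taken from the same values, so the test gives it no independent support. The levels of C4b and C2 are uncertain, as given below, and so are the steps that hold them. The step from C1qc to C2 was the least sure, with C1qc higher in 16 of 22 mice (adjusted permutation p = 0.00718), and C4b exceeded C1qa in 15 of 22 (adjusted permutation p = 0.0059). The order was not the same in every group. C4b exceeded C1qa in 9 of 10 mice with clodronate but in 6 of 12 with PBS, where the means were 75.3 and 73.9 CPM. C1qa exceeded C1qb in only 1 of 5 control mice with clodronate (means 54.5 and 55.4 CPM), C1qc exceeded C2 in 2 of those 5, and C2 exceeded C3ar1 in 3 of 6 control mice with PBS. C3 exceeded C4b in 22 of 22 mice (adjusted permutation p = 3.5e-05). Behind these values stood 3068 to 11118 reads per mouse for C3, but 47 to 1076 for C3ar1 and 19 to 94 for C5ar1 above the floor, so the receptors rested on the fewest reads.

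**Figure D1:**
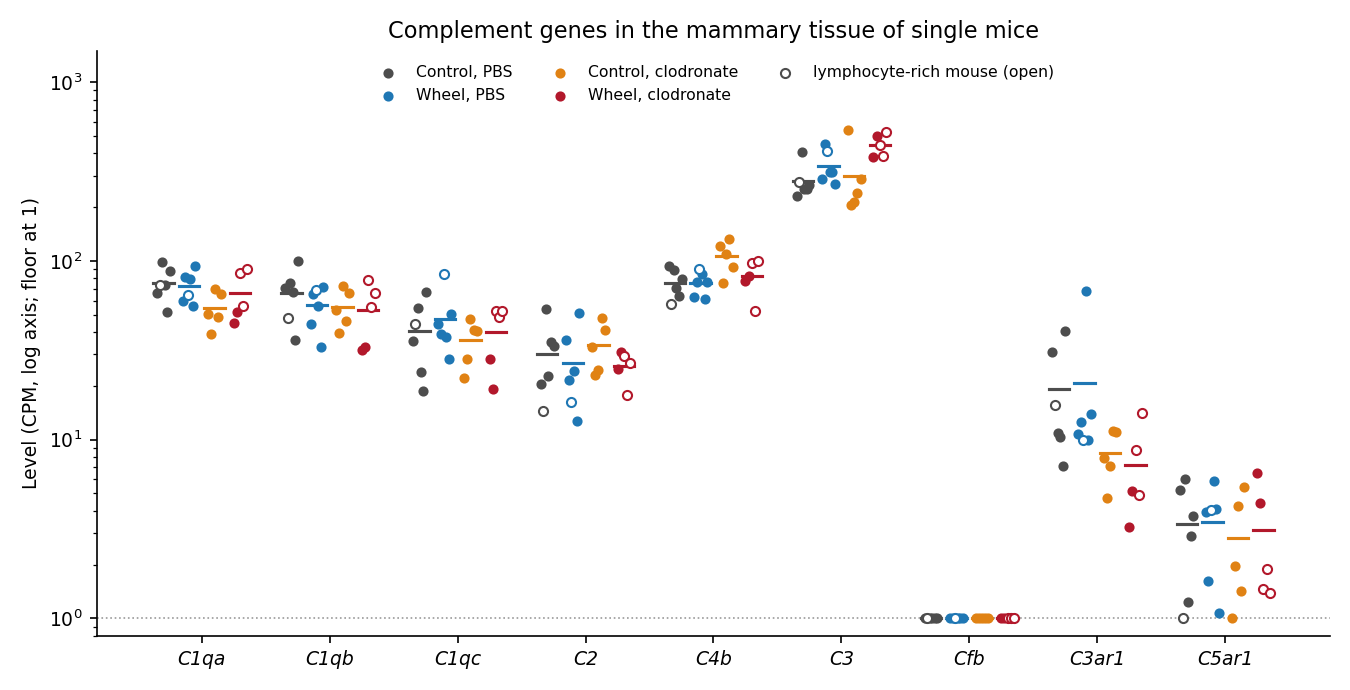
Level of each gene in CPM (log axis) in single mice, by group, with the mean of a group as a bar, the floor of 1 as a dotted line and lymphocyte-rich mice as open circles. C3 lies highest in every group, Cfb lies on the floor in all 22 mice, and C3ar1 spreads from 3.24 to 67.5 CPM.

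Cfb, the alternative pathway protease, was at the floor of 1 CPM in all 22 mice, so no change of it could be measured. Cfb (chr17:34856374-34862518) overlaps on the same strand a readthrough gene model, Gm20547 (chr17:34856412-34882042), which covers 79.5% of its exonic bases and 288 of the last 400, and which was also at the floor in all mice. A low level of Cfb RNA and reads set aside because they matched both genes cannot be told apart. C2 (chr17:34862604-34898265) shares 42.8% of its exonic bases with Gm20547 but, with all exons merged, none of its last 400, where these libraries read. The last 400 bases of a C2 transcript did match Gm20547 over 52.2% of their length, at 97% identity or more, so C2 is also uncertain. C4b (chr17:34728380-34743882) is uncertain for another reason. Its last 400 bases matched its neighbouring copy C4a over 99.8% of their length, at 97% identity or more. C3 (chr17:57203970-57228136), C3ar1 (chr6:122847138-122856161) and C5ar1 (chr7:16246743-16259540) had no near-identical 3′ end elsewhere, and all 9 genes are on the minus strand.

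The chains of C1q are assembled in equal numbers into the protein, and their RNAs were all well above the floor in every mouse. C1qa made up 41.0% ± 5.12, C1qb 34.6% ± 4.10 and C1qc 24.4% ± 5.29 of the summed C1q level (SD, n = 22). The share of C1qc ran from 14.6% to 38.8%. The mean share of C1qa in the 4 groups lay between 37.4% and 42.2%.

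With PBS liposomes, wheel running was compared with the sedentary state to ask whether activity alone moved complement RNA. C3 in control mice was 232, 276, 405, 252, 252 and 265 CPM in replicates 1 to 6, and in wheel-running mice 286, 449, 413, 313, 313 and 271 CPM. All 6 wheel-running mice lay above the control median of 259 CPM, but the ranges overlapped. The difference was 0.28 ± 0.20 (SE) on the log2(CPM + 1) scale, with a 95% confidence interval from -0.13 to 0.69 (limma adjusted p = 0.987). The differences of the other members lay between -0.21 and 0.26. None of the 8 members tested passed an adjusted p of 0.05, against 0% of the 15138 genes tested, and 0 of 8 had an unadjusted p under 0.05, against 4.91% of all genes. Their median change was -0.02, beside -0.08 over all genes.

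Group means differed by less than the spread between mice for the C1q genes, C2 and C4b. C1qa averaged 75.2 ± 16.5 CPM (SD, n = 6) in control and 72.6 ± 14.7 CPM (SD, n = 6) in wheel-running mice, and C4b 75.5 ± 14.2 and 75.1 ± 11.4 CPM. The interval of the C4b difference, from -0.35 to 0.35 on the log2 scale, bounds what could have been missed. C1qc averaged 40.7 and 47.4 CPM, a difference of 0.26 with an interval from -0.38 to 0.89, nearly as large as that of C3. C1qb averaged 66.3 and 56.4 CPM (-0.21, interval -0.73 to 0.32), and the interval of C2 ran from -0.81 to 0.45, so these genes are not shown to be alike between the groups. For C3ar1 the interval ran from -0.97 to 0.88, so changes of nearly 1 log2 unit in either direction could not be seen.

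With clodronate liposomes, the same comparison asked whether activity mattered once phagocytes had been targeted. C3 was 543, 205, 214, 241 and 288 CPM in control replicates 1 to 5 and 381, 502, 443, 388 and 524 CPM in wheel-running replicates 1 to 5. All 5 wheel-running mice exceeded 4 of the 5 control mice, and control replicate 1 exceeded them all. C3 was higher by 0.67 ± 0.22 (SE) on the log2(CPM + 1) scale, with a 95% interval from 0.23 to 1.12. This did not pass the adjustment over all genes (limma adjusted p = 0.26). Without control replicate 1 the difference was 0.92 (limma adjusted p = 0.163), and without the lymphocyte-rich mice, which leaves 2 wheel-running mice, 0.65 (limma adjusted p = 0.801).

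No member passed an adjusted p of 0.05 in this comparison, where 0.00661% of all genes did. C3 was the 1 of 8 members with an unadjusted p under 0.05, against 10.4% of all genes. C4b ran the other way, at 121, 74.9, 109, 132 and 92.9 CPM in control mice and 77.5, 82.8, 97.4, 52.4 and 100.3 CPM in wheel-running mice. No wheel-running mouse reached the control median of 109 CPM, and the ranges overlapped. Its difference was -0.37 ± 0.18 (limma adjusted p = 0.489), and -0.22 without wheel-running replicate 4. C2 was 33.9 ± 10.7 CPM (SD, n = 5) in control and 26.0 ± 5.11 CPM (SD, n = 5) in wheel-running mice, a difference of -0.34 with an interval from -1.03 to 0.35.

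The C1q genes were highest in the lymphocyte-rich mice of this wheel-running group. C1qb was 31.7 and 32.9 CPM in the 2 wheel-running mice with few lymphocyte genes, and 78.5, 55.5 and 66.1 CPM in the 3 that were lymphocyte-rich. The macrophage score of wheel-running mice with clodronate ran from 3.17 to 4.62 (summed marker level 202 to 641 CPM), and all 12 lymphocyte markers had an unadjusted limma p under 0.05 in this comparison, with a median change of 2.48. The C1qb difference was -0.12 with all mice (limma adjusted p = 0.929) and -0.72 without the lymphocyte-rich mice (limma adjusted p = 0.774). The part of the lymphocyte-rich tissue in the C1q values was not tested beyond this. In whole tissue, fewer cells of a type and less RNA per cell cannot be told apart.

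Clodronate liposomes were then compared with PBS liposomes, averaged over activity. C3ar1, the C3a receptor, showed the widest difference of the members. With PBS it was 30.9, 15.5, 10.9, 10.3, 7.14 and 40.3 CPM in control mice and 10.8, 12.5, 9.91, 67.5, 9.97 and 14.0 CPM in wheel-running mice. With clodronate it was 7.86, 4.69, 7.11, 11.2 and 11.01 CPM in control mice and 3.24, 5.18, 8.75, 4.92 and 14.2 CPM in wheel-running mice. A few PBS mice were far higher than the rest, 5 of the 10 clodronate mice lay below the lowest PBS mouse, and only 1 exceeded the PBS median of 11.7 CPM. The difference was -1.02 ± 0.33 (SE) on the log2(CPM + 1) scale, with a 95% interval from -1.71 to -0.34 (limma adjusted p = 0.22). It was -0.82 without the highest mouse, wheel-running replicate 4 with PBS, and -1.36 without the lymphocyte-rich mice (limma adjusted p = 0.234).

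C1qa was lower with clodronate by a smaller margin. It ran from 51.8 to 99.2 CPM (median 73.6) in the 12 PBS mice and from 39.1 to 90.3 CPM (median 54.0) in the 10 clodronate mice, of which 4 lay below every PBS mouse. Its difference was -0.31 ± 0.14 (limma adjusted p = 0.441), and C1qb and C1qc were at -0.18 and -0.17. Without the lymphocyte-rich mice the differences of the chains were -0.52, -0.48 and -0.39, and that of C1qa had an adjusted limma p of 0.234. Single mice moved C1qb to -0.096 (without wheel-running replicate 1 with clodronate) and C1qc to -0.060 (without wheel-running replicate 2 with clodronate). C4b was the only member with an unadjusted p under 0.05 on the higher side, by 0.29 ± 0.12 (limma adjusted p = 0.399). Of the clodronate mice, 8 of 10 lay above the PBS median of 76.1 CPM. The C4b means with PBS and clodronate were 75.5 and 106 CPM in control mice, but 75.1 and 82.1 CPM in wheel-running mice.

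None of the 8 members passed an adjusted p of 0.05 for the liposome, where 0.205% of all genes did. C1qa, C3ar1 and C4b, 3 of 8, had an unadjusted p under 0.05, against 10.4% of all genes, and the median change was -0.17 beside -0.04 over all genes. Macrophage markers lay near the members: 10 of 12 were below 0, with a median of -0.20, 2 at an unadjusted p under 0.05 and none past the adjustment. Macrophage scores overlapped, from 3.53 to 4.80 and 3.32 to 4.48 in control and wheel-running mice with PBS, and from 3.45 to 4.06 and 3.17 to 4.62 with clodronate, so macrophage RNA was present in every mouse. All 10 adipocyte markers (median -0.50, 6 at an unadjusted p under 0.05) and 8 of 9 fibroblast markers (median -0.43, 5) were also below 0, none past the adjustment. Skeletal muscle and lymphocyte markers lay the other way, with 0 of 6 (median 1.54) and 0 of 12 (median 0.77) below 0, none past the adjustment. The part of cell make-up in the lower C3ar1 and C1qa was not tested.

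**Figure D2:**
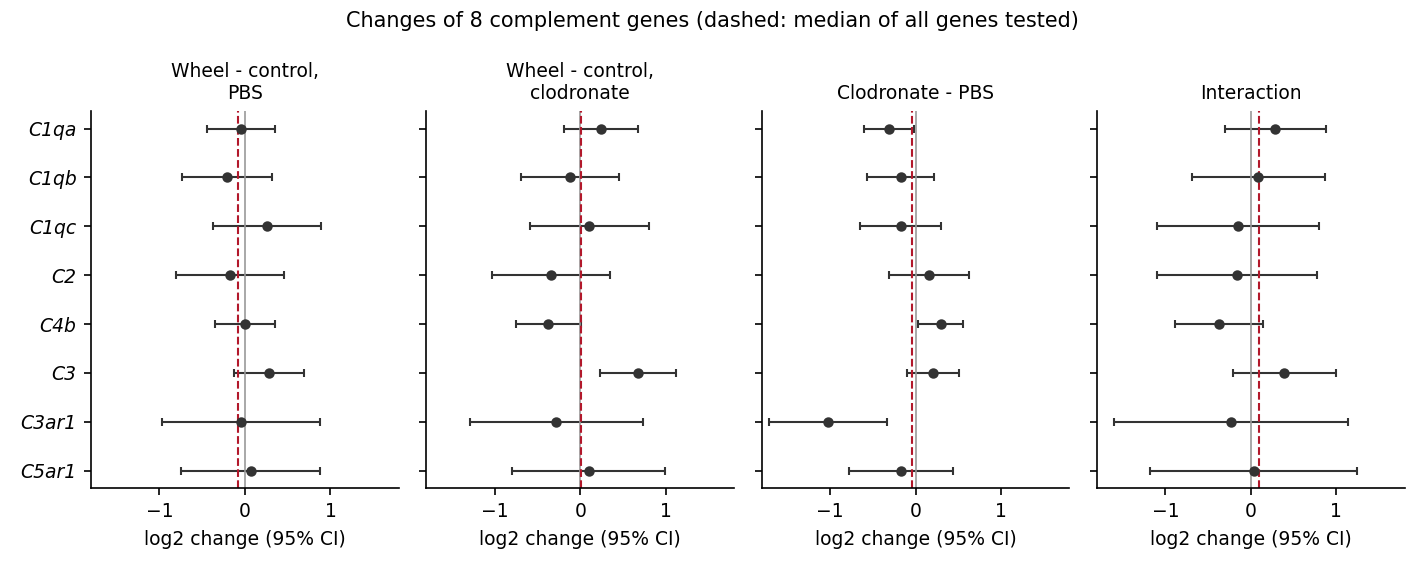
Change of each of the 8 members tested on the log2(CPM + 1) scale, with 95% confidence intervals from limma, in the 4 comparisons, with the median of all genes as a dashed line. The intervals of C3 with clodronate (0.23 to 1.12) and of C3ar1 between the liposomes (-1.71 to -0.34) lie farthest from 0, and neither passed the adjustment over all genes.

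Whether the effect of activity differed between the liposomes was tested as an interaction. C3 had the largest estimate upwards, 0.39 (95% interval -0.21 to 1.00; limma adjusted p = 0.797), and C4b the largest downwards, -0.37 (-0.89 to 0.14; limma adjusted p = 0.761). Members past an adjusted p of 0.05 numbered 0 of 8, against 0% of all genes, and 0 of 8 had an unadjusted p under 0.05, against 7.58%. The C3 estimate ran from 0.28 to 0.63 when single mice were left out, and was 0.63 without control replicate 1 with clodronate (limma adjusted p = 0.672). Under upper-quartile scaling the median interaction of all genes went from 0.09 to -0.01 and that with PBS liposomes from -0.08 to 0.00, and the sign of C1qa and C3ar1 with PBS and of C1qb and C5ar1 in the interaction turned.

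Members also varied between mice of the same group, and some of this variation was shared. Over the 17 mice that were not lymphocyte-rich, after subtraction of group means, C1qa and C1qb had a Pearson r of 0.901 (adjusted permutation p = 0.011) and a Spearman rho of 0.902 (adjusted permutation p = 0.0184), over a family of 92 relations. Without the 2 mice farthest from the median, r was 0.855. C1qc followed C1qb (r = 0.724, adjusted permutation p = 0.0512; rho = 0.669, adjusted permutation p = 0.0916) and C1qa (r = 0.672, adjusted permutation p = 0.112; rho = 0.672, adjusted permutation p = 0.135) less closely. All values share a library and its depth with the value they are set against.

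The macrophage score, which holds none of the members, had an r of 0.836 with C1qb (adjusted permutation p = 0.026; rho = 0.723, adjusted permutation p = 0.0916), 0.773 with C1qc (adjusted permutation p = 0.0221; rho = 0.672, adjusted permutation p = 0.0916) and 0.725 with C1qa (adjusted permutation p = 0.0613; rho = 0.640, adjusted permutation p = 0.135). The r values without the 2 farthest mice were 0.640, 0.685 and 0.563. C3ar1 had an r of 0.706 with the macrophage score (adjusted permutation p = 0.16) and a rho of 0.640 (adjusted permutation p = 0.135), with an r of 0.674 without the 2 farthest mice. For C3 the r with the macrophage score was -0.046 (adjusted permutation p = 0.927) and the rho -0.115 (adjusted permutation p = 0.895). For C5ar1 they were 0.224 (adjusted permutation p = 0.687) and 0.260 (adjusted permutation p = 0.677). With the neutrophil score, which lay near the floor, C5ar1 had an r of 0.603 (adjusted permutation p = 0.158). The rho was 0.718 (adjusted permutation p = 0.0916). The r of the C1q genes with that score was 0.704 for C1qc (adjusted permutation p = 0.112), 0.585 for C1qa (adjusted permutation p = 0.232) and 0.555 for C1qb (adjusted permutation p = 0.227).

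C2 followed the adipocyte markers. Its r with the adipocyte score was 0.833 (adjusted permutation p = 0.017) and its rho 0.846 (adjusted permutation p = 0.0184), 0.820 without the 2 farthest mice and 0.774 over all 22 mice. Its r with the macrophage score was 0.410 (adjusted permutation p = 0.507) and the rho 0.377 (adjusted permutation p = 0.519). Of the 92 relations, 4 passed an adjusted p of 0.05 by Pearson's r (C1qa with C1qb, the macrophage score with C1qb and with C1qc, and the adipocyte score with C2), and 2 of these by Spearman's rho as well (C1qa with C1qb, and the adipocyte score with C2).

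**Figure D3:**
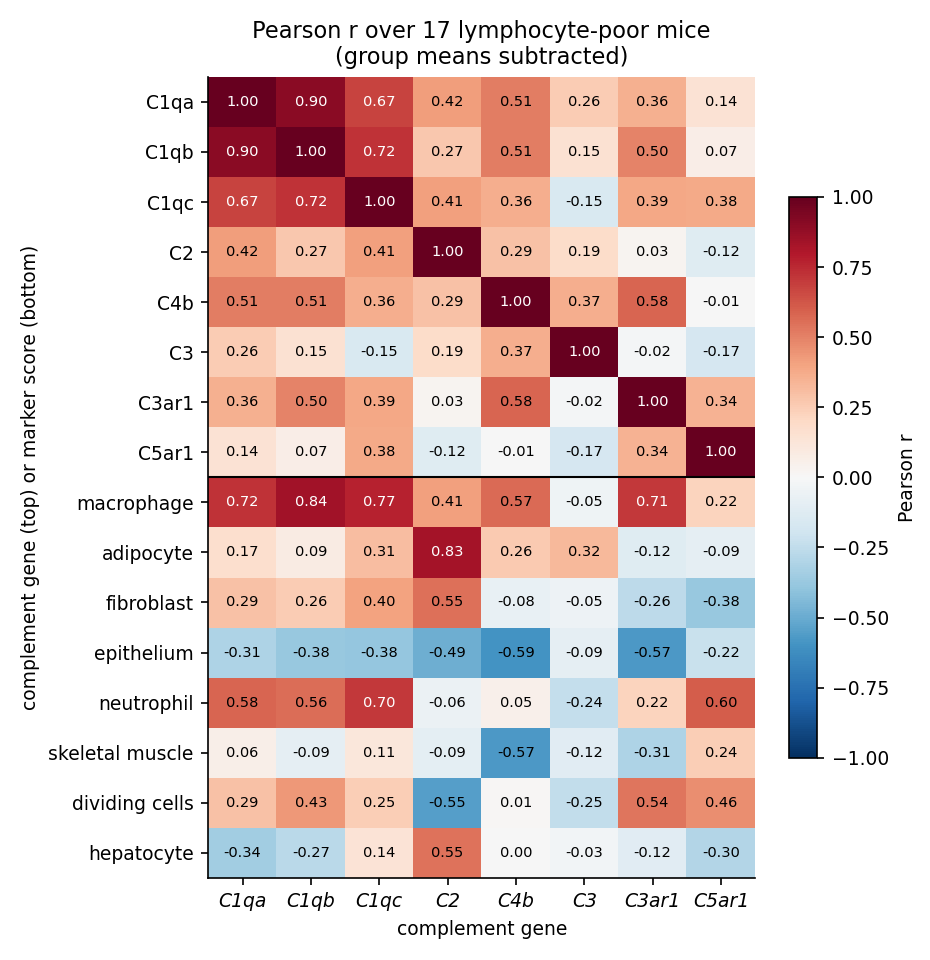
Pearson r between the 8 members above the floor (top) and between each member and 8 marker scores (bottom), over 17 mice after subtraction of group means. The C1q genes form a block with the macrophage score (0.72 to 0.84), and their r with the neutrophil score is 0.555 to 0.704. C2 stands out for the adipocyte score (0.83).

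**Figure D4:**
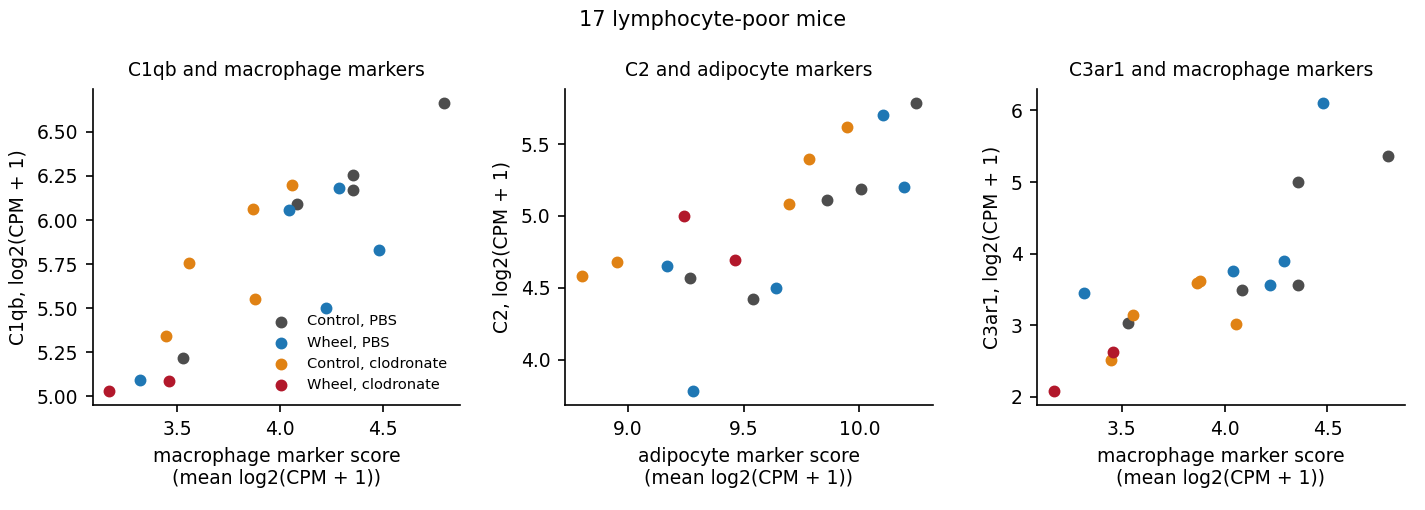
C1qb against the macrophage score, C2 against the adipocyte score and C3ar1 against the macrophage score, one point a mouse, in 17 mice, all axes on a log2 scale and before group means were subtracted. C1qb lies at 31.7 to 39.6 CPM for macrophage scores up to 3.53 and at 44.2 to 100 CPM above. C2 shows no rise up to an adipocyte score of 9.64 (12.8 to 31.0 CPM) and lies at 32.9 to 54.1 CPM above. C3ar1 has 3 PBS mice (30.9, 40.3 and 67.5 CPM) well above the rest.

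The genes whose pattern was most like the mean of the 3 C1q genes over the same 17 mice were Arhgap45 (r = 0.883), Wdfy4 (0.868), Recql (0.814), Il2rb (0.806) and Folr2 (0.806). Over all 22 mice Wdfy4 and Il2rb ranked 3 and 6, but Recql, Arhgap45 and Folr2 ranked 28, 41 and 48. For C3 the genes most alike over the 17 mice were 9430062P05Rik (r = 0.812), Tinag (0.785), Mavs (0.784), Aldh4a1 (0.783) and Gm11837 (0.767). The first of these never exceeded 1.46 CPM, so its likeness rests on values next to the floor. These are the highest r of all genes tested, given as a description.

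C3ar1 was high in 3 PBS mice, control replicates 1 and 6 and wheel-running replicate 4. Itgam, which encodes a chain of complement receptor 3 on myeloid cells, was also highest or near it in them, at 34.3, 23.1 and 36.3 CPM against 7.41 to 24.3 CPM in the other 19 mice. The receptor genes Itgb2 and Itgax did not stand out in the same way. Itgb2 was 13.3, 19.7 and 12.7 CPM in the 3 mice, against 1.42 to 37.2 CPM in the other 19. Its highest values were in lymphocyte-rich mice, and without those the others ran from 1.42 to 11.2 CPM. Itgax was 5.47, 4.29 and 4.77 CPM in the 3 mice, against 1.00 to 8.14 CPM in the other 19. The 3 mice had scores of 5.02, 4.75 and 4.85 for dividing cells, the highest of the 22. These comparisons were made after the values were seen. Over the 17 mice, C3ar1 and the dividing-cell score had an r of 0.538 (adjusted permutation p = 0.257) and a rho of 0.407 (adjusted permutation p = 0.49).

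Of 47 other complement genes, 30 could be tested and 13 were at the floor in all mice. Cfd, which encodes factor D, the protease of the alternative pathway also known as adipsin, had 7230 ± 2210 CPM (SD, n = 22), far above C3. The most abundant of the other roles were C1s1 of the classical pathway proteases (44.3 CPM), Fcna of the lectin pathway (7.67), C6 of the terminal components (5.51), the C1 inhibitor Serping1 of the fluid-phase regulators (144), Cd59a of the membrane regulators (91.8) and Calr of the other receptors, a chaperone that also binds C1q (198). At the floor throughout were Masp1, Mbl1, Mbl2, Fcnb and Colec10 of the lectin pathway, the terminal components C7, C8a, C8b and C9, the regulators Cfi, C4bp and Cpn1, and Cd55b.

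In no comparison did any of these 30 genes pass an adjusted p of 0.05. At an unadjusted p under 0.05 there was 1 of 30 for activity with PBS (Cd59b, higher), against 4.91% of all genes, and there were 5 for activity with clodronate (Cd55, Clu, Colec11 and Cr2 higher, Cd59a lower), against 10.4%. Between the liposomes there were 2 (Cd59a and Cd59b, lower), against 10.4%, and for the interaction 4 (Cd55, Colec11 and Cr2 upwards, Cd59b downwards), against 7.58%. Clu in wheel-running mice with clodronate averaged 202 CPM, but 84.6 CPM in the 2 that were not lymphocyte-rich, against 77.6 CPM in control mice with clodronate. Cr2, complement receptor 2 of B cells, was at the floor in 17 mice and at 39.5, 40.3, 101, 120 and 78.0 CPM in the 5 lymphocyte-rich mice, 3 of which are wheel-running mice with clodronate. The other receptors among the members, C3ar1 and C5ar1, had overlapping levels in the lymphocyte-rich and the other mice.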

How the data were processed

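RNA of mammary tissue from 22 mice was measured by QuantSeq 3′ FWD sequencing. Per the submitters' processing notes, STAR 2.5.3a and GRCm38 were used, and the counting annotation is not given in the sources used here. The values that the authors deposited are a signal in CPM for each gene and mouse, where anything under 1 was replaced by 1. That total includes unmapped (4.13% to 8.66%), multimapping (16.59% to 19.92%), ambiguous (0.48% to 0.61%) and unannotated reads (11.47% to 17.77%), which were left out of the genes tested. Depth was recovered from the size of the smallest step between the values of a library. The floor removes low counts, so count models were not used.

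Groups and replicate numbers came from the sample labels, and each sample was 1 mouse. Of 106 symbols listed more than once, the one with the highest mean was kept. The 15138 genes that exceeded the floor in 5 or more mice were fitted with limma 3.58.1 in R 4.3.3 on log2(CPM + 1), a scale that understates changes near the floor. The fit had 4 group means, a variance trend and Benjamini-Hochberg adjustment over all genes. A trial of the fit on simulated data gave every gene the same spread beyond counting noise and held no lymphocyte-rich mice. It therefore does not show how the fit performs on these data. Correlations and level order used 100000 two-sided permutations, within groups or by sign within mice (Python 3.11.15, numpy 2.4.6, pandas 2.3.3, scipy 1.17.1). The smallest permutation p is 1e-05. Positions are from GENCODE on GRCm38, promoters from RefSeq (GRCm38.p6; 5 of 9 members matched), and near-identical 3′ ends were sought with blastn 2.17.0+ over 400 bases at 97% identity or more.

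The members, gene lists and tests were chosen with earlier results of these data known. Named were all members, the most abundant other complement gene of each role, those past the adjusted threshold, and the 5 genes most like the C1q mean and C3. Cr2, Itgam, Itgb2, Itgax and genes named at unadjusted p were added after values were seen. Alternatives were pseudocounts of 0.1 and 5, other filters, upper-quartile scaling, scaling to assigned reads, no variance trend, a replicate block, only the groups compared, and leaving out each mouse or the lymphocyte-rich mice.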

Additional observations from a re-analysis of the deposited data

Results flagged for a closer look

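Single mice stood far from the rest of their group in 5 of 60 groups of values, by Dixon's test at the 95% level, where chance gives about 1 in 20, or 3. C3 was 405 CPM in replicate 3 of control mice with PBS liposomes, against 276 CPM in the next. C3 was also 543 CPM in replicate 1 of control mice with clodronate liposomes, against 288 CPM in the next, and this mouse holds down the difference between wheel-running and control mice there. C3ar1 was 67.5 CPM in replicate 4 of wheel-running mice with PBS liposomes, against 14.0 CPM in the next. In replicate 4 of control mice with clodronate liposomes, the terminal component C6 was 8.84 CPM against 2.79 CPM in the next, and the regulator Cd59a was 140 CPM against 90.7 CPM in the next.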

How the results depend on the processing

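No member passed an adjusted p of 0.05 under any alternative run: 0 of 300 changes under other settings and 0 of 704 with 1 mouse left out, counts of 0 throughout. The lowest adjusted limma p was 0.124, for C3 between wheel-running and control mice with clodronate without wheel-running replicate 1. For C3ar1 between the liposomes it was 0.16, in genes with a mean of at least 5 CPM.

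Direction turned in 14 of the 300, all in changes far from the threshold. Under upper-quartile scaling, C1qa (0.052) and C3ar1 (0.045) for activity with PBS and C1qb (-0.034) and C5ar1 (-0.041) for the interaction turned, and with a pseudocount of 5, C4b for activity with PBS (-0.000312). Without the lymphocyte-rich mice, C4b (-0.13), C3ar1 (0.062) and C5ar1 (-0.19) turned for activity with PBS, C1qa (-0.14) and C1qc (-0.55) for activity with clodronate, C5ar1 (0.16) between the liposomes, and C1qa (-0.12), C1qb (-0.38) and C2 (0.019) for the interaction. The cause was not tested. Leaving out 1 mouse turned 51 of 704 changes, in 13 results. These ran for activity with PBS from -0.15 to 0.039 (C1qa), -0.39 to 0.012 (C2), -0.075 to 0.066 (C4b), -0.46 to 0.21 (C3ar1) and -0.13 to 0.26 (C5ar1), for activity with clodronate from -0.28 to 0.039 (C1qb), -0.050 to 0.34 (C1qc) and -0.15 to 0.33 (C5ar1), and for the interaction from -0.076 to 0.24 (C1qb), -0.32 to 0.078 (C1qc), -0.35 to 0.045 (C2), -0.49 to 0.18 (C3ar1) and -0.22 to 0.26 (C5ar1). C3 with clodronate ran from 0.56 to 0.92 and C3ar1 between the liposomes from -1.15 to -0.82.

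Same-numbered mice are different animals, so they were not treated as pairs. Their deviations correlated between -0.252 and 0.114 with PBS and between -0.12 and 0.517 with clodronate. With PBS 0 of 12 mice were closest to their own number, and with clodronate 4 of 10. Whether same-numbered mice with clodronate shared an effect was not tested on its own. With the replicate number as a block, 0 members were called in any comparison, and 11 genes in all between the liposomes, against 31 without it. Over all genes, calls between the liposomes ran from 0 (without the lymphocyte-rich mice) to 54 (mean of at least 5 CPM) under other settings and from 9 to 146 without 1 mouse, and calls for activity with clodronate, 1 as reported, from 0 to 12 and from 0 to 236. C5ar1 rested on few reads (19 to 94 above the floor), and Cfb could not be measured above it.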
